A study of Bos taurus with 24 samples.

Results

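The mRNAs of the cytoplasmic translation machinery were examined in bovine oocytes before and after meiotic maturation and in 2 seasons. The members are the genes whose symbols name eukaryotic initiation factors (EIF1 to EIF6), elongation factors (EEF1 and EEF2), the release factors ETF1, GSPT1 and GSPT2, or cytoplasmic poly(A)-binding proteins (PABPC). This rule used symbols alone, and it found 60 of the 11306 genes in the table. All 60 exceeded 0.1 FPKM, the filter on low values, in at least 1 of the 24 libraries, although EIF2AK2 and EIF4EBP2 did so in 1 library each and EEF1A2 in 2. EIF4E1B and PABPC1L, the germline forms of the cap-binding protein and of the poly(A)-binding protein, were not analysed here, nor were EIF2B5, EIF3F, EIF4G1, EIF4G3, EIF5B and EIF2AK4.

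Initiation begins when the eIF4F complex (eIF4E, eIF4G and the helicase eIF4A) binds the mRNA cap. The small ribosomal subunit, carrying eIF3, eIF1, eIF1A and eIF2 with the initiator tRNA, then scans to the start codon, after which eEF1A and eEF2 drive elongation. A fully grown oocyte is largely silent in transcription, so that meiotic maturation runs on stored mRNA whose translation is switched on or off, in part through the length of the poly(A) tail.

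Oocytes were aspirated from non-lactating, non-pregnant, Angus-based crossbred beef cows aged 3 to 6 years in May (spring) and July (summer). They were denuded of cumulus cells either as germinal vesicle (GV) oocytes or as metaphase II (MII) oocytes after in vitro maturation, so all MII oocytes had matured in culture. Each of the 4 groups, May GV, July GV, May MII and July MII, held 6 libraries, each made from 4 oocytes pooled per animal. The labels of the samples speak of single cells instead. Values are FPKM, fragment numbers corrected for exon length and library size, and are therefore levels per length. In pools of oocytes, fewer contributing cells and less RNA per cell cannot be told apart, and with capture by oligo-dT an altered amount of an mRNA and an altered poly(A) tail cannot be told apart either.

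Relative depth, read from the spacing of the lowest FPKM values with May GV replicate 1 set to 1, was 0.0565 in May GV replicate 6, 0.149 in May MII replicate 6 and 0.393 in July GV replicate 2, which are also the 3 libraries with under 70% of reads mapped. July GV replicates 3 and 5 were deeper, at 2.19 and 6.51, and the others lay between 0.542 and 1.06. The fragments behind a value are unknown, so the counting error of the values cannot be given. Results that rest on the 3 libraries are given with and without them. The oocyte label was matched by its markers, of which 10 of 11 were listed, with a summed level of 572 to 1865 FPKM in GV and 981 to 1650 FPKM in MII libraries. Blood markers summed to 0.795 FPKM at most.

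The members together made up 0.585% to 1.83% of the summed FPKM of a library. Their summed level had a median of 685 FPKM in May GV (507 to 1586) and 904 FPKM in May MII oocytes (828 to 1191). In July it was 658 FPKM in GV (595 to 1063) and 894 FPKM in MII oocytes (733 to 1186). The top of each GV range was the library of low mapping in that group, May GV replicate 6 and July GV replicate 2. Levels were very uneven: 11 members averaged over 10 FPKM across all libraries, 31 averaged 1 to 10 FPKM and 18 averaged under 1 FPKM. EIF1 and EIF1B alone carried 40.8% to 48.4% of the members' summed FPKM in May GV, 35.1% to 45.4% in July GV, 46.0% to 61.2% in May MII and 43.2% to 60.3% in July MII oocytes.

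The comparison of MII with GV oocytes asks how the share of these mRNAs in the stored pool differs after maturation. Every library sums to the same FPKM total, so higher and lower are relative to its other mRNAs, not amounts per oocyte. A gene was called at an unadjusted limma p under 0.05 with a fold change over 2, and fold changes are log2 differences on log2(FPKM + 1), which understates the change of genes under about 1 FPKM. In May, 3 members were called higher in MII (EIF5, EIF3L and EIF4G2), where 3.57% of all 9526 tested genes were, and 10 were called lower (16.7% of the members), where 8.25% of all genes were. In July, 3 were called higher (EIF4A2, EIF4G2 and EIF2S3), against 2.2% of all genes, and 10 lower, against 9.26% of all genes. Over the 3665 genes that averaged at least 1 FPKM, of which 42 are members, 3 members were called higher and 9 lower in May, beside 9.28% and 20.7% of those genes, and 3 higher and 10 lower in July, beside 5.76% and 23.3%. The members called lower were therefore near the background among genes of that level. The median log2 fold change of the members was -0.05 in May and -0.12 in July, beside -0.03 and -0.02 over all genes.

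With a limma adjusted p under 0.05 in place of the called rule, 7 members were higher in MII and 12 lower in May, against 9.45% and 14.7% of all genes. In July, 6 were higher and 15 lower, against 7.67% and 23.1% of all genes, so the July share of members lower in MII (25%) was near the background. In May, 2 of the 60 members were higher in every MII library than in every GV library and 8 were lower, against 4.65% and 8.98% of all genes. In July, 2 of 60 were higher and 13 lower, against 3.07% and 14.7% of all genes.

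Single libraries and the scaling moved these splits, and the shares of all genes moved too. Without the 3 libraries of low mapping, 5 members were called higher and 7 lower in May (4.02% and 8.87% of all genes), and 5 higher and 9 lower in July (3.52% and 9.03%). Quantile normalization gave 6 higher and 8 lower in May (5.85% and 6.8% of all genes) and 5 higher and 7 lower in July (5.19% and 7.05%). Median-of-ratios scaling gave 2 and 11 in May (2.52% and 9.44% of all genes) and 5 and 10 in July (3.2% and 8.44%). Without May GV replicate 6 the May split was 6 higher and 5 lower (5.24% and 8.91% of all genes). The May count called higher was 1 without May GV replicate 1 or May MII replicate 6 (3.11% and 3.08% of all genes). The July count called higher was 5 without July GV replicate 2, July MII replicate 1 or July MII replicate 3 (3.52%, 2.47% and 3.07% of all genes).

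The calls of the 2 months overlapped in part. Of the 17 members called in either month, 9 were called in both, EIF4G2 higher and EIF6, EIF1AD, EIF3G, EEF1D, EEF2KMT, EIF3D, EIF3M and EIF2B4 lower. The months share no library, but both months and both stages can hold oocytes of the same cows, which the labels do not tie to libraries, so the months need not be independent. Of the 8 members called in 1 month alone, all had the same sign in the other month and 7 had an unadjusted limma p under 0.05 there. The sign of the fold change matched between months for 53 of the 60 members, and 25 members had an unadjusted limma p of 0.05 or more in both. The same agreement over all genes was not counted, so it is not shown to be particular to the members.

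**Figure D1:**
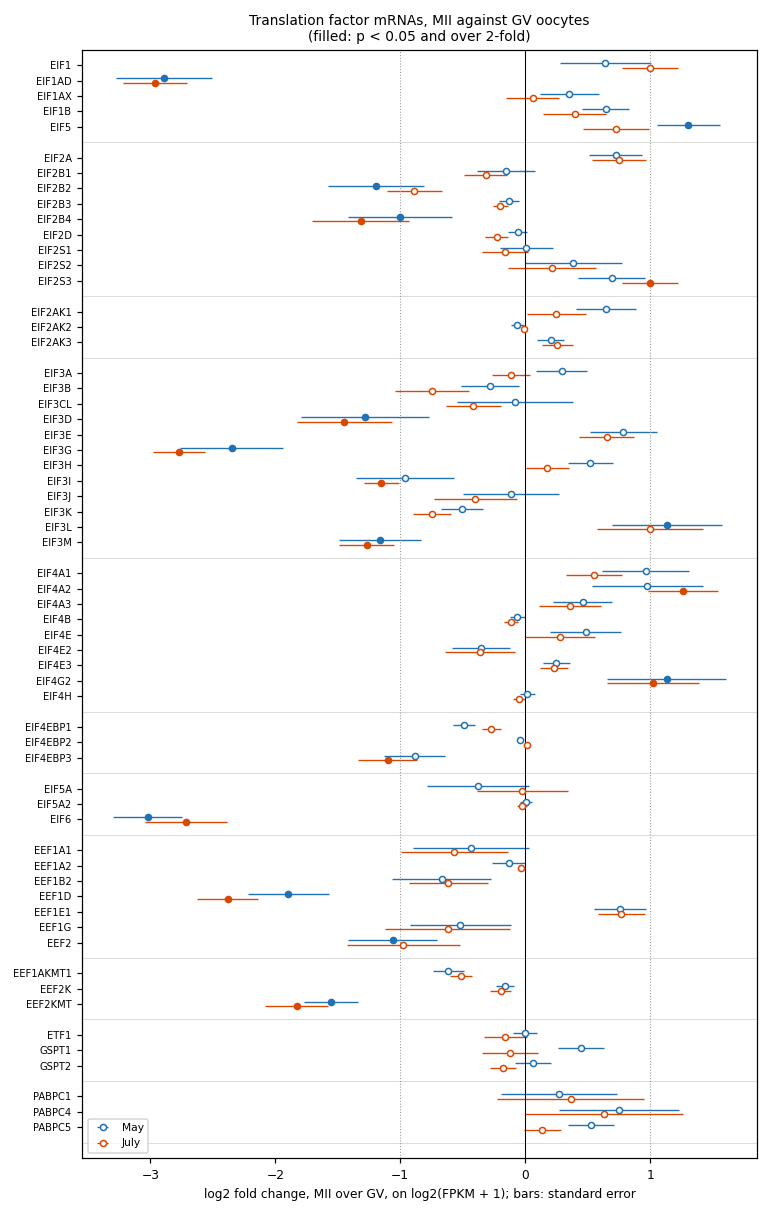
Log2 fold change of MII over GV oocytes on log2(FPKM + 1) for all 60 members, ordered by complex, in May (blue) and July (orange). Bars are limma standard errors, filled points were called, and dotted lines mark a 2-fold change. EIF6, EIF1AD, EIF3G, EEF1D and EEF2KMT lie beyond the lower line in both months, and EIF4G2 beyond the upper line.

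The list of factors that find the start codon included the most abundant members. Of its 5 genes, 4 had positive log2 fold changes in both months. EIF1AD, which is not the eIF1A proper, alone had negative ones. EIF5, which stimulates GTP hydrolysis by eIF2 at the start codon (UMD3.1, chromosome 21, 69638191 to 69647506), ranged in May from 10.9 to 31.1 FPKM in GV oocytes (median 13.4) and from 35.2 to 47.2 FPKM in MII oocytes (median 38.6). Every May MII library lay above every GV library, a log2 fold change of 1.30 (standard error, SE, 0.25, limma adjusted p = 0.00317, exact permutation p = 0.00216, the smallest that 6 against 6 libraries can give). In July, EIF5 ranged from 13.4 to 36.8 FPKM in GV (median 17.4) and from 21.0 to 50.5 FPKM in MII oocytes (median 32.2), with overlapping groups and a log2 fold change of 0.73 (SE 0.27, limma adjusted p = 0.0571, exact permutation p = 0.026). The May call of EIF5 held under all 20 alternatives tried.

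EIF1AD, whose product carries an eIF1A-like domain (chromosome 29, 44756082 to 44759165), went the other way. It ranged in May from 6.65 to 44.0 FPKM in GV (median 30.8) and from 1.69 to 3.82 FPKM in MII oocytes (median 2.67). In July it ranged from 26.9 to 35.8 FPKM in GV (median 30.8) and from 0.829 to 4.58 FPKM in MII oocytes (median 3.88). The stages did not overlap in either month, and the log2 fold change was -2.89 in May (SE 0.38, limma adjusted p = 0.00031) and -2.96 in July (SE 0.26, limma adjusted p = 1.01e-05), each with an exact permutation p of 0.00216. The lowest May GV value, 6.65 FPKM, was that of replicate 6, and without the 3 libraries of low mapping the fold change was -3.17 in May and -2.92 in July.

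EIF1 and its close paralog EIF1B, which keep the ribosome from settling at a wrong start codon, were both abundant at either stage. EIF1 ranged in May from 116 to 624 FPKM in GV (median 145) and from 207 to 374 FPKM in MII oocytes (median 277), and in July from 106 to 200 FPKM in GV (median 118) and from 166 to 383 FPKM in MII oocytes (median 247). The groups overlapped in both months, each time through a GV library of low mapping alone. In May this was replicate 6 (624 FPKM), and the rest of May GV ranged from 116 to 174 FPKM, under every MII library. In July it was replicate 2 (200 FPKM), and the rest of July GV ranged from 106 to 136 FPKM, also under every MII library. The log2 fold change was 0.64 in May (SE 0.36, limma adjusted p = 0.21, exact permutation p = 0.128) and 0.998 in July, just short of a 2-fold change (SE 0.22, limma adjusted p = 0.00502, exact permutation p = 0.00433). EIF1B had medians of 135 and 211 FPKM in May GV and MII oocytes without overlap (log2 fold change 0.64, limma adjusted p = 0.0245), and of 152 and 203 FPKM in July with overlap (0.40, limma adjusted p = 0.253). EIF1AX, the eIF1A proper, had group medians of 13.8 to 22.8 FPKM, and its change missed the threshold in both months.

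Factor eIF2, which delivers the initiator tRNA, is a trimer of EIF2S1, EIF2S2 and EIF2S3, and eIF2B recharges it with GTP. The gamma subunit EIF2S3 (chromosome X, 126240222 to 126255116) ranged in July from 1.93 to 3.55 FPKM in GV (median 2.30) and from 4.37 to 12.5 FPKM in MII oocytes (median 5.04), without overlap. Its July log2 fold change was 1.001, just over 2-fold (SE 0.23, limma adjusted p = 0.00537, exact permutation p = 0.00216). In May it ranged from 1.40 to 5.76 FPKM in GV (median 2.87) and from 4.17 to 6.30 FPKM in MII oocytes (median 5.61), with overlap, a log2 fold change of 0.69 (SE 0.27, limma adjusted p = 0.0734) that was not called. The July call of EIF2S3 was lost without July GV replicate 3, 4 or 6 or July MII replicate 2, where the fold change fell under 2. EIF2S1 and EIF2S2, the alpha and beta subunits, had limma adjusted p values of 0.981 and 0.462 in May and of 0.531 and 0.674 in July.

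The exchange factor subunits were lower in MII oocytes where they were called. EIF2B4 (chromosome 11, 72283254 to 72287766) ranged in July from 3.84 to 20.7 FPKM in GV (median 6.46) and from 0.911 to 5.72 FPKM in MII oocytes (median 1.88), and the groups overlapped. The log2 fold change was -1.32 (SE 0.39, limma adjusted p = 0.0211, exact permutation p = 0.00866) and held under all 20 alternatives. In May it was -1.003, with medians of 5.22 and 1.88 FPKM (SE 0.42, limma adjusted p = 0.0952, exact permutation p = 0.0498), and the call was lost under 7 of 20 alternatives.

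EIF2B2 (chromosome 10, 86654324 to 86661343) ranged in May from 0.449 to 9.24 FPKM in GV (median 0.922) and from the lowest listed value, 0.01, to 0.154 FPKM in MII oocytes (median 0.0727). In July it ranged from 0.579 to 3.51 FPKM in GV (median 0.841) and from 0.095 to 0.288 FPKM in MII oocytes (median 0.132). The stages did not overlap in either month, and the log2 fold changes were -1.19 (limma adjusted p = 0.0392) and -0.89 (limma adjusted p = 0.00873), each with an exact permutation p of 0.00216. With the 3 libraries of low mapping left out, the May value was -0.76 (limma adjusted p = 0.0011), under 2-fold on this scale, and the highest GV values of the 2 months were those of May GV replicate 6 and July GV replicate 2. EIF2A, which can bring initiator tRNA to the ribosome in place of eIF2, was higher in MII oocytes at an adjusted p under 0.05 in both months (log2 fold changes 0.72 and 0.75, limma adjusted p = 0.0273 and 0.0191), with medians of 0.723 and 2.19 FPKM in May and 0.604 and 1.61 FPKM in July. None of the 3 listed kinases that inhibit eIF2 was called. EIF2AK1 had medians of 0.784 and 1.62 FPKM in May GV and MII oocytes and 0.985 and 1.57 FPKM in July, EIF2AK3 did not exceed 0.851 FPKM in any library, and EIF2AK2 was at or near the lowest value outside May GV replicate 6.

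**Figure D2:**
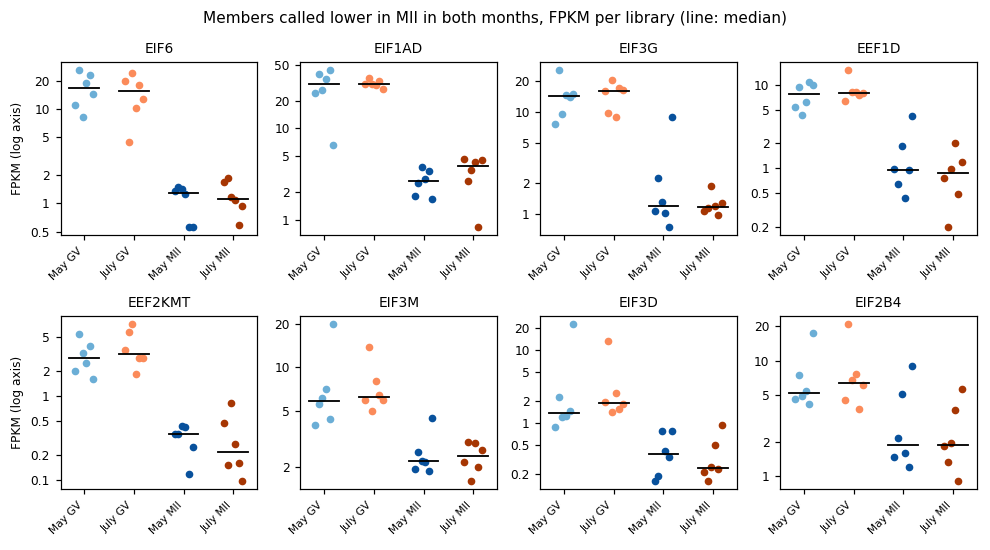
FPKM per library on a log axis for the 8 members called lower in MII in both months; points are libraries and lines are group medians. EIF6, EIF1AD, EIF3D, EEF1D and EEF2KMT do not overlap between stages in either month. The single high points of EIF3D, EIF3M and EIF2B4 in GV oocytes are May replicate 6 and July replicate 2.

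The subunits of eIF3, the large scaffold that holds the small ribosomal subunit and recruits the mRNA, did not move as a block. In May, 1 of the 12 listed was called higher in MII and 3 lower, beside 3.57% and 8.25% of all genes. In July 4 were called lower and none higher, beside 9.26% and 2.2% of all genes. Among genes averaging at least 1 FPKM, 20.7% were called lower in May and 23.3% in July. The median log2 fold changes over the 12 were -0.20 and -0.58. EIF3G, an RNA-binding subunit (chromosome 7, 15897382 to 15902005), ranged in May from 7.59 to 26.0 FPKM in GV (median 14.3) and from 0.737 to 8.95 FPKM in MII oocytes (median 1.18), and May MII replicate 6 alone reached into the GV range. In July it ranged from 8.90 to 20.6 FPKM in GV (median 16.2) and from 0.96 to 1.89 FPKM in MII oocytes (median 1.16), without overlap. Its log2 fold change was -2.35 in May (SE 0.41, limma adjusted p = 0.00183, exact permutation p = 0.00433) and -2.77 in July (SE 0.21, limma adjusted p = 4.6e-06, exact permutation p = 0.00216), and it was called under all 20 alternatives in both months.

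EIF3M (chromosome 15, 64095495 to 64112930) ranged in July from 4.96 to 13.9 FPKM in GV (median 6.18) and from 1.60 to 3.02 FPKM in MII oocytes (median 2.41), without overlap. The log2 fold change was -1.27 in July (SE 0.22, limma adjusted p = 0.00109) and -1.16 in May (SE 0.33, limma adjusted p = 0.0211), where the medians were 5.82 and 2.20 FPKM. EIF3D, the subunit that can itself bind the cap (chromosome 5, 75299355 to 75313534), ranged in May from 0.88 to 22.4 FPKM in GV (median 1.37) and from 0.164 to 0.784 FPKM in MII oocytes (median 0.384), and in July from 1.42 to 13.3 FPKM in GV (median 1.89) and from 0.162 to 0.95 FPKM in MII oocytes (median 0.243). The stages did not overlap in either month, although the top values of 22.4 and 13.3 FPKM came from May GV replicate 6 and July GV replicate 2. Its log2 fold change was -1.28 in May (SE 0.51, limma adjusted p = 0.084) and -1.45 in July (SE 0.38, limma adjusted p = 0.0127), each with an exact permutation p of 0.00216. Without the 3 libraries of low mapping, EIF3D was at -0.80 in May (limma adjusted p = 0.00482) and -1.06 in July (limma adjusted p = 0.00048), and EIF3M at -0.9998 in May, just short of 2-fold, and -1.09 in July.

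EIF3I (chromosome 2, 122128559 to 122136317) was called in July alone, where it ranged from 7.63 to 10.8 FPKM in GV (median 8.99) and from 2.99 to 4.42 FPKM in MII oocytes (median 3.29). That July difference, without overlap, was -1.15 (SE 0.14, limma adjusted p = 8.53e-05). In May the medians were 8.44 and 4.72 FPKM with overlap, a difference of -0.96 (SE 0.39, limma adjusted p = 0.0881). EIF3K was lower by less than 2-fold in both months (-0.51 and -0.74, limma adjusted p = 0.0447 and 0.00295).

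Of the 12 subunits, 4 had a positive log2 fold change in May and 3 in July, among them EIF3L, EIF3E and EIF3H in both months. EIF3L (chromosome 5, 110166179 to 110187073) ranged in May from 1.70 to 8.74 FPKM in GV (median 2.98) and from 3.43 to 30.3 FPKM in MII oocytes (median 7.75), and in July from 3.23 to 14.9 FPKM in GV (median 3.75) and from 5.21 to 28.4 FPKM in MII oocytes (median 10.5). Groups overlapped in both months, with a log2 fold change of 1.14 in May (SE 0.44, limma adjusted p = 0.0758, exact permutation p = 0.0346) and of 0.997 in July, just short of 2-fold (SE 0.42, limma adjusted p = 0.0922, exact permutation p = 0.0563). The May call of EIF3L was lost without May GV replicate 1 or 3 or May MII replicate 6. EIF3E had medians of 8.30 and 15.1 FPKM in May GV and MII oocytes and of 11.02 and 18.1 FPKM in July, log2 fold changes of 0.79 and 0.65 (limma adjusted p = 0.0468 and 0.0404). EIF3H had medians of 0.745 and 1.76 FPKM in May GV and MII oocytes, a log2 fold change of 0.52 (SE 0.18, limma adjusted p = 0.05, exact permutation p = 0.0108), and of 1.06 and 1.28 FPKM in July (0.18, limma adjusted p = 0.461).

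The order of the subunits by median level therefore differed between stages. EIF3G ranked 1 of 12 in GV oocytes and 9 of 12 in MII oocytes in both months. EIF3E ranked 4 in May GV and 2 in July GV oocytes and 1 in MII oocytes of both months, and EIF3L went from rank 6 to rank 2. EIF3D, at rank 9 or 10 in GV oocytes, was at rank 12 in MII oocytes. Neighbours in this order mostly overlapped in their ranges: in GV oocytes EIF3K, EIF3I and EIF3E, with medians of 8.30 to 11.02 FPKM, could not be ordered beyond their spread. The highest median was 56.2 times the lowest in May GV, 31.0 times in July GV, 39.3 times in May MII and 74.6 times in July MII oocytes.

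**Figure D3:**
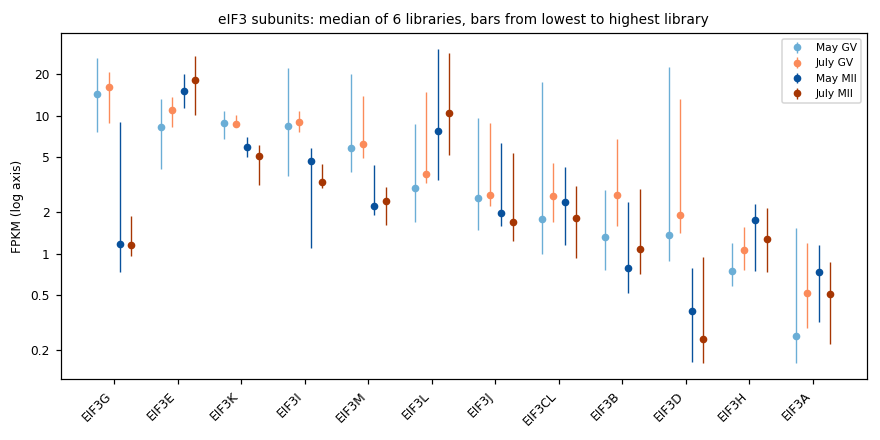
FPKM of the 12 eIF3 subunits on a log axis, with the median of 6 libraries per group as a point and a bar from the lowest to the highest library. EIF3G is the highest subunit in both GV groups and ranks 9 in both MII groups, while EIF3E and EIF3L are the top subunits in MII oocytes.

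Of the 9 listed genes of the cap-binding complex, its relatives and its helpers, 7 had positive log2 fold changes in May and 6 in July. The others were negative, down to -0.35 in May and -0.36 in July. At a limma adjusted p under 0.05, 0 were higher in MII oocytes in May and 1 in July, beside 9.45% and 7.67% of all genes. In May 1 of the 9 was called higher, beside 3.57% of all genes, and in July 2, beside 2.2%. Among genes averaging at least 1 FPKM, 9.28% were called higher in May and 5.76% in July. None of the 9 was called lower in either month, and the medians of their log2 fold changes were 0.46 and 0.28. EIF4G2, an eIF4G relative that lacks the site for eIF4E (chromosome 15, 42435880 to 42446240), ranged in May from 8.96 to 60.3 FPKM in GV (median 14.2) and from 17.97 to 88.6 FPKM in MII oocytes (median 42.6). In July it ranged from 12.6 to 47.8 FPKM in GV (median 16.6) and from 24.3 to 73.6 FPKM in MII oocytes (median 41.6). The groups overlapped in both months, and the difference was 1.13 in May (SE 0.48, limma adjusted p = 0.0978, exact permutation p = 0.0606) and 1.02 in July (SE 0.37, limma adjusted p = 0.0523, exact permutation p = 0.0325). The call was lost under 8 of 20 alternatives in May, 7 of them the omission of 1 library, and under 5 of 20 in July. When the libraries of low mapping were omitted, the difference was 1.25 in May (limma adjusted p = 0.0247) and 1.26 in July (limma adjusted p = 0.00983).

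The helicase eIF4A, which unwinds the 5′ end of the mRNA, is encoded by the similar genes EIF4A1 and EIF4A2. EIF4A2 (chromosome 1, 81057776 to 81064091) ranged in July from 14.0 to 43.0 FPKM in GV (median 17.8) and from 33.4 to 64.8 FPKM in MII oocytes (median 54.6). July GV replicate 2 alone overlapped the MII range, the log2 fold change was 1.26 (SE 0.28, limma adjusted p = 0.00484, exact permutation p = 0.00649), and the call held under all 20 alternatives. In May EIF4A2 had medians of 16.3 and 39.8 FPKM and a difference of 0.98 (SE 0.45, limma adjusted p = 0.124, exact permutation p = 0.0736). EIF4A1 (chromosome 19, 27915413 to 27921422) ranged in May from 23.2 to 132 FPKM in GV (median 63.8) and from 91.8 to 150 FPKM in MII oocytes (median 119), a difference of 0.96 (SE 0.35, limma adjusted p = 0.0608), and in July it had medians of 66.5 and 104 FPKM (0.55, SE 0.22, limma adjusted p = 0.0788). Without the 3 libraries of low mapping, May EIF4A1 and EIF4A2 both passed, at 1.21 and 1.23 (limma adjusted p = 0.0146 and 0.0143).

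EIF4E, the cap-binding protein itself, had medians of 6.84 and 9.97 FPKM in May GV and MII oocytes and of 6.45 and 7.88 FPKM in July, with overlapping groups (differences of 0.49 and 0.28, SE 0.28 each, limma adjusted p = 0.222 and 0.48). EIF4B and EIF4H, cofactors of the helicase, did not exceed 0.456 FPKM in any library.

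The repressors of eIF4E, which block its access to eIF4G, were low, and of the 3 listed EIF4EBP1 and EIF4EBP3 were lower in MII oocytes at an adjusted p under 0.05 in both months. EIF4EBP3 (chromosome 7, 53405281 to 53407217) ranged in July from 0.873 to 4.19 FPKM in GV (median 1.44) and from 0.01 to 0.653 FPKM in MII oocytes (median 0.142), and in May from 1.12 to 2.10 FPKM in GV (median 1.65) and from 0.0782 to 2.01 FPKM in MII oocytes (median 0.23). The July groups did not overlap (-1.10, SE 0.24, limma adjusted p = 0.00401, exact permutation p = 0.00216), whereas in May the MII value of 2.01 FPKM, from replicate 6, lay in the GV range (-0.88, SE 0.24, limma adjusted p = 0.0191). With the 3 libraries of low mapping left out, the order of the months turned, with -1.09 in May, called, and -0.90 in July, not called. EIF4EBP1 was at -0.49 and -0.27 (limma adjusted p = 0.00222 and 0.0201), from medians of 0.508 FPKM in May GV and 0.265 FPKM in July GV to 0.0926 and 0.109 FPKM, and EIF4EBP2 did not exceed 0.154 FPKM.

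EIF6, which binds the large ribosomal subunit and keeps it from joining the small one (chromosome 13, 65206237 to 65212124), had the most negative fold change of all members in May. It ranged from 8.32 to 26.0 FPKM in May GV (median 16.7) and from 0.558 to 1.503 FPKM in May MII oocytes (median 1.30), and from 4.47 to 24.2 FPKM in July GV (median 15.4) and from 0.588 to 1.85 FPKM in July MII oocytes (median 1.11). No MII library reached the lowest GV library of its month. The log2 fold changes were -3.02 in May (SE 0.28, limma adjusted p = 3.16e-05) and -2.71 in July (SE 0.33, limma adjusted p = 8.48e-05), each with an exact permutation p of 0.00216, and both were called under all 20 alternatives. EIF5A, needed where ribosomes stall, had medians of 5.62 and 3.75 FPKM in May and 3.01 and 3.64 FPKM in July GV and MII oocytes, and neither difference passed (-0.38 and -0.02, limma adjusted p = 0.491 and 0.971).

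Of the 7 elongation factor genes, EEF1D and EEF2 were called lower in MII oocytes in May and EEF1D alone in July. Of all genes, 8.25% were called lower in May and 9.26% in July. EEF1D, a subunit of the exchange factor that recharges eEF1A (chromosome 14, 2313946 to 2326722), ranged in May from 4.43 to 11.1 FPKM in GV (median 7.95) and from 0.444 to 4.26 FPKM in MII oocytes (median 0.969). In July it ranged from 6.44 to 15.4 FPKM in GV (median 8.17) and from 0.197 to 2.03 FPKM in MII oocytes (median 0.873). The stages did not overlap in either month, and the log2 fold changes were -1.90 (SE 0.32, limma adjusted p = 0.00152) and -2.38 (SE 0.25, limma adjusted p = 3.01e-05), each with an exact permutation p of 0.00216 and called under all 20 alternatives. The listed span of VAMP2 covers all of EEF1D on the opposite strand. Without strand, reads from any exon positions the 2 genes share cannot be told apart, and whether their exons overlap was not checked.

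The partners of EEF1D in the exchange factor, EEF1B2 and EEF1G, did not pass. EEF1B2 had medians of 10.6 and 6.54 FPKM in May GV and MII oocytes and of 11.5 and 6.39 FPKM in July (-0.67 and -0.61, limma adjusted p = 0.23 and 0.16). EEF1G had medians of 4.29 and 2.96 FPKM in May and of 3.89 and 2.27 FPKM in July (-0.52 and -0.62, limma adjusted p = 0.356 and 0.371). EEF1A1, which brings aminoacyl-tRNA to the ribosome and has many gene copies in mammalian genomes, ranged from 18.4 to 162 FPKM over all libraries, with overlap of stages in both months (-0.44 and -0.57, limma adjusted p = 0.487 and 0.34).

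EEF2, which moves the ribosome along the mRNA (chromosome 7, 21252438 to 21261329), ranged in May from 1.33 to 9.22 FPKM in GV (median 1.94) and from 0.269 to 1.75 FPKM in MII oocytes (median 0.515), with overlap. In July it ranged from 1.17 to 13.01 FPKM in GV (median 1.52) and from 0.232 to 2.67 FPKM in MII oocytes (median 0.401), also with overlap. The log2 fold change was -1.06 in May (SE 0.36, limma adjusted p = 0.0464, exact permutation p = 0.0195) and -0.97 in July (SE 0.45, limma adjusted p = 0.12, exact permutation p = 0.0476). Without the 3 libraries of low mapping the values were -0.89 (limma adjusted p = 0.0103) and -0.56 (limma adjusted p = 0.128), and neither was called. EEF1E1, a partner of the tRNA synthetases, was higher in MII oocytes (0.76 and 0.77, limma adjusted p = 0.019 and 0.00788), from 1.64 to 3.74 FPKM in May and from 1.58 to 3.13 FPKM in July by their medians, and EEF1A2 was at the lowest listed value in 20 of 24 libraries.

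The 3 listed enzymes that modify elongation factors all had negative differences. EEF2KMT, the methyltransferase that acts on eEF2 (chromosome 25, 4119351 to 4130230), ranged in May from 1.57 to 5.396 FPKM in GV (median 2.81) and from 0.117 to 0.442 FPKM in MII oocytes (median 0.356), and in July from 1.83 to 7.14 FPKM in GV (median 3.14) and from 0.0973 to 0.823 FPKM in MII oocytes (median 0.213). The stages were separate in both months, at -1.56 (SE 0.22, limma adjusted p = 0.000408) and -1.83 (SE 0.25, limma adjusted p = 0.000201), each with an exact permutation p of 0.00216 and called under all 20 alternatives. EEF1AKMT1, a methyltransferase of eEF1A, also fell without overlap, by 0.61 and 0.51 on the log2 scale (limma adjusted p = 0.00366 and 0.00109), from medians of 0.86 and 0.675 FPKM to 0.212 and 0.192 FPKM. EEF2K, the kinase that inhibits eEF2, did not exceed 0.627 FPKM in any library, with differences of -0.16 and -0.20 (limma adjusted p = 0.126 and 0.103).

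Release factors and poly(A)-binding proteins were called in neither month. ETF1, which recognises stop codons, had group medians of 0.246 to 0.314 FPKM, and its partner GSPT1 had medians of 1.71 and 2.80 FPKM in May GV and MII oocytes and of 2.43 and 1.99 FPKM in July (0.45 and -0.12, limma adjusted p = 0.0918 and 0.718). PABPC1, which coats poly(A) tails, ranged from 1.46 to 23.0 FPKM over all libraries (0.27 and 0.37, limma adjusted p = 0.674 and 0.669), and PABPC4 from 1.197 to 20.7 FPKM (0.75 and 0.63, limma adjusted p = 0.264 and 0.474). PABPC5, an X-linked member, had medians of 0.122 and 0.709 FPKM in May GV and MII oocytes (0.53, limma adjusted p = 0.0499) and of 0.199 and 0.312 FPKM in July (0.14, limma adjusted p = 0.512).

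**Figure D4:**
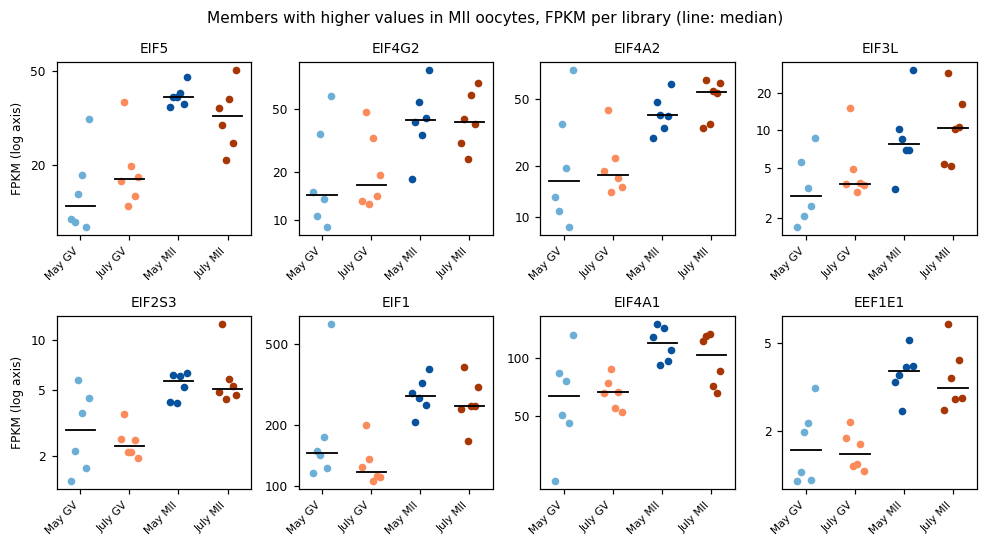
FPKM per library on a log axis for 8 members with higher medians in MII than in GV oocytes; points are libraries and lines are group medians. EIF5 in May and EIF2S3 and EEF1E1 in July are separate between stages, and the highest GV point in most panels is May replicate 6 or July replicate 2.

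Some members varied more between libraries of a group than between stages, and they varied together. EEF1A1, EEF1B2, EEF1G, EEF2, PABPC1 and PABPC4, singled out after their values were seen, were among the top 2 libraries of their group for all 6 genes in May GV replicates 3 and 6, July GV replicate 4, May MII replicate 6 and July MII replicates 4 and 6. May MII replicate 3 and July GV replicate 2 were among the top 2 for 5 of the 6. Those 8 libraries were also the top 2 of each group for the summed level of the granulosa and cumulus markers, of which 17 of 18 were listed. The markers summed to 102 and 50.2 FPKM in May GV replicates 3 and 6, 73.5 and 35.9 FPKM in July GV replicates 2 and 4, 29.2 and 52.8 FPKM in May MII replicates 3 and 6, and 50.6 and 54.5 FPKM in July MII replicates 4 and 6. EIF4G2, called higher in MII oocytes in both months, also had its top 2 values of each group in those 8 libraries. They were 60.3 and 35.0 FPKM in May GV and 47.8 and 32.8 FPKM in July GV oocytes. In MII oocytes they were 88.6 and 55.8 FPKM in May and 73.6 and 61.8 FPKM in July.

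Over the groups this sum ranged from 21.3 to 102 FPKM in May GV, from 21.6 to 73.5 FPKM in July GV, from 17.3 to 52.8 FPKM in May MII and from 13.3 to 54.5 FPKM in July MII oocytes. STAR, the cholesterol carrier of steroid synthesis, reached 64.3 FPKM and made up most of the sum in every library but May GV replicate 3, where INHA, FST and AMH reached 37.2, 20.3 and 13.4 FPKM. The defining granulosa markers FSHR and CYP19A1 did not exceed 0.0352 and 0.0687 FPKM in any library. PTGS2, HAS2 and SERPINE2, genes of the expanding cumulus, reached 8.68, 3.99 and 2.095 FPKM in their highest libraries. PTX3, TNFAIP6, VCAN and CD44, also on the list, did not exceed 0.663, 0.322, 0.143 and 0.0513 FPKM. HAS2, a hyaluronan synthase, had medians of 0.277 and 1.45 FPKM in May GV and MII oocytes and of 0.351 and 1.77 FPKM in July. It was the 1 of 14 tested cumulus or granulosa markers called higher in MII oocytes in each month, with 0 called lower. Of all genes, 3.57% were called higher in May and 2.2% in July. In May 4 of the 14 markers had positive log2 fold changes and 10 negative ones, and in July 6 and 8. In 3 of the 4 groups the same 2 libraries also had the lowest depth. The part of other cells or of depth in these values was not tested.

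**Figure D5:**
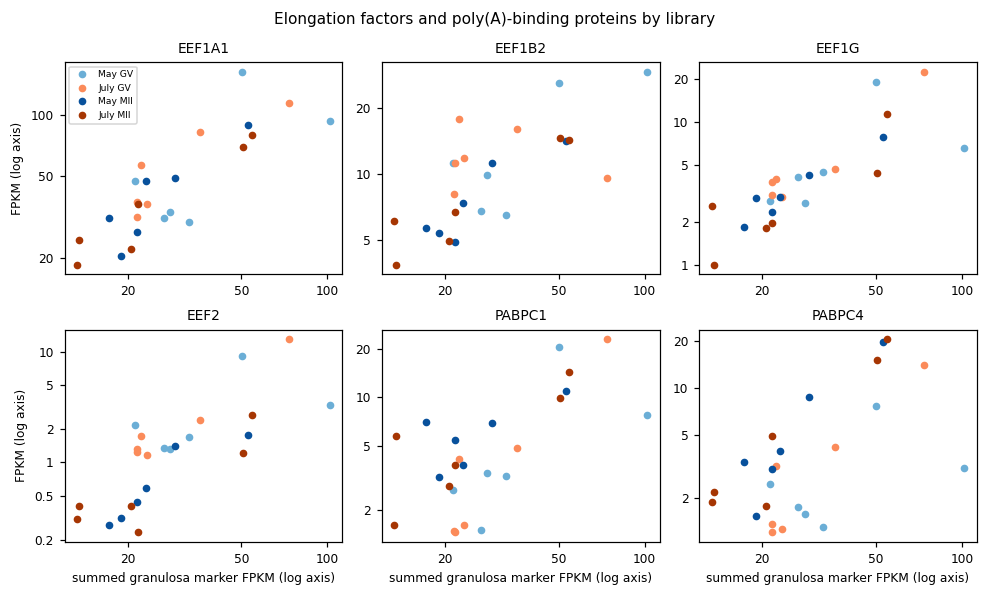
FPKM of 6 elongation factor and poly(A)-binding protein genes (y, log axis) against the summed FPKM of granulosa and cumulus markers (x, log axis) in the 24 libraries, coloured by group. The 8 libraries with the highest marker sums of their groups carry most of the highest values. The points share library and depth, and no test was made.

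Other genes of the pathway, a list of 63 regulators, ribosome recycling factors and modifying enzymes, gave 46 tested genes in 47 entries, since DENR is listed at 2 loci. In May 2 entries were called higher in MII oocytes and 6 lower, beside 3.57% and 8.25% of all genes. In July 2 were called higher and 7 lower, beside 2.2% and 9.26% of all genes. Among genes averaging at least 1 FPKM, 20.7% were called lower in May and 23.3% in July. The median log2 fold changes of the entries were 0.11 and 0.05. PPP1CB, a catalytic subunit of the phosphatase that acts on eIF2, and TRMT112, the partner of the methyltransferase that modifies the release factor eRF1, were called higher in both months. TRMT112 went from a median of 260 to 592 FPKM in May and from 319 to 651 FPKM in July, without overlap (1.27 and 1.08, limma adjusted p = 0.00138 and 0.00341).

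Genes called lower in both months included PAIP2, the inhibitor of PABPC1, at -1.56 and -1.27 (limma adjusted p = 0.00108 and 0.000136), with medians of 7.30 and 1.505 FPKM in May and 4.66 and 1.28 FPKM in July. AKT1S1 and MLST8, both components of the mTOR complex that controls the eIF4E repressors, were at -1.79 and -1.56 in May (limma adjusted p = 0.00183 and 0.00559) and -1.72 and -1.44 in July (limma adjusted p = 0.00295 and 0.00122). DHPS, which starts the hypusine modification of eIF5A, went from 19.3 to 4.97 FPKM in May and from 18.8 to 3.28 FPKM in July by the medians (-1.71 and -2.04, limma adjusted p = 0.0412 and 0.00219). DPH2, an enzyme of the diphthamide modification of eEF2, was at -1.16 and -1.23 (limma adjusted p = 0.041 and 0.0137), and PPP1CA, another catalytic subunit of that phosphatase, at -1.05 and -1.20 (limma adjusted p = 0.0434 and 0.00673). PELO, which rescues stalled ribosomes, was called lower in July alone (-1.09, limma adjusted p = 0.0119), with 209 FPKM in 1 May GV library.

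The comparison of July with May oocytes asks whether the summer season altered these mRNAs. In GV oocytes no member was called between the seasons, where 0.0315% of all genes were, and 1 of 60 had an unadjusted limma p under 0.05 (1.67%), against 1.55% of all genes. In MII oocytes no member was called, against 0.042% of all genes, and 1 of 60 had an unadjusted p under 0.05, against 2.11% of all genes. No gene in the table had an adjusted p under 0.05 in either stage. The groups of the 2 seasons overlapped for every member at both stages.

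The GV member was EIF3B, a scaffold subunit of eIF3 (chromosome 25, 41435743 to 41453954), which ranged from 0.766 to 2.91 FPKM in May (median 1.33) and from 1.59 to 6.75 FPKM in July (median 2.65). July was higher by 0.68 on the log2 scale (SE 0.28, limma adjusted p = 1, exact permutation p = 0.0368), and by 0.62 without the 3 libraries of low mapping (SE 0.19, limma adjusted p = 1). The MII member was EIF2B2, from a median of 0.0727 FPKM in May to 0.132 FPKM in July (0.11, SE 0.04, limma adjusted p = 1, exact permutation p = 0.0281), a difference between values close to the lowest listed value. Over all 60 members, 42 were higher in July than in May in GV oocytes (median 0.06, beside 0.01 over all genes) and 19 in MII oocytes (median -0.03, beside -0.01). These splits were not stable. Median-of-ratios scaling put 22 members higher in July in GV oocytes and 31 in MII oocytes. Without July GV replicate 2, 28 were higher in July in GV oocytes, and without May MII replicate 6, one of the libraries of low mapping, 33 were higher in MII oocytes.

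All 12 eIF3 subunits had a positive difference in GV oocytes, from 0.0095 to 0.68 (median 0.09). In MII oocytes 9 had a negative one (median -0.13). None of the 12 was called at either stage. The share of all genes with each sign was not counted, and the split of the 12 was not checked without single libraries. When the libraries of low mapping were omitted, 4 members had an unadjusted limma p under 0.05 in GV oocytes, EIF3A, EIF3B, EIF3CL and GSPT1, all higher in July, against 3.63% of all genes in the same libraries. In MII oocytes EIF3I alone did, at -0.38 (SE 0.13, limma adjusted p = 0.999), against 3.17% of all genes.

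Whether the stage difference itself differed between seasons was tested over all 4 groups. For the July minus May difference in the MII against GV change, no member was called, against 0.21% of all genes, and none had an unadjusted limma p under 0.05, against 1.8% of all genes. For the members called in both months the differences of the changes were 0.31 for EIF6 (SE 0.44), -0.07 for EIF1AD (0.47), -0.42 for EIF3G (0.48), -0.49 for EEF1D (0.41) and -0.27 for EEF2KMT (0.33), each with a limma adjusted p of 1. For EIF5, called in May alone, it was -0.58 (SE 0.37, limma adjusted p = 1), and a p that misses the threshold does not show that the months were alike. Without the 3 libraries of low mapping, EIF3A, EIF3H and EIF3I had an unadjusted p under 0.05 for this difference (-0.42, -0.48 and -0.73, limma adjusted p = 1), against 2.9% of all genes.

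Some values cannot be assigned to 1 gene with certainty. The table does not show how fragments shared by close paralogs were counted, which touches EIF1 and EIF1B, EIF4A1 and EIF4A2, GSPT1 and GSPT2, EIF3CL with its paralog EIF3C, and the gene copies of EEF1A1 and PABPC1. The library kit does not mark strand, and the listed spans of 11 members overlap that of another listed gene on UMD3.1. These spans run from start to end of a gene, and whether exons overlap was not checked. On the same strand, ZNF280B overlaps EIF2B1 by 10914 bases. On the opposite strand, VAMP2 covers the whole span of EEF1D (12777 bases), and POLR2K covers the whole spans of EIF3E (47954 bases), EIF3H (97257 bases) and PABPC1 (17750 bases). The overlaps were 1615 bases for EEF2KMT with ALG1, 8 bases for EIF4A2 with RFC4 and 2 bases for EIF3M with CCDC73, also on opposite strands.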

How the data were processed

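RNA was measured in 24 libraries of pooled oocytes by Smart-seq2 and Nextera XT. According to the methods and the submitters' processing notes, the authors aligned trimmed reads to UMD3.1 with STAR 2.5.3a and quantified FPKM in Partek. The deposited FPKM values sum to between 86768.1 and 86768.2 in every library and are never under 0.01, so a common total and an added 0.01 are read from the values, and no counts are listed. Here, log2(FPKM + 1) of the 9526 genes over 0.1 FPKM in at least 1 library entered limma (version 3.58.1, R 4.3.3) with a mean-variance trend, with the 2 compared groups in each fit and all 4 groups for the difference between seasons. The threshold for a call, an unadjusted p below 0.05 with over 2-fold, follows the study's methods, and Benjamini-Hochberg adjustment was over all tested genes. Single members also had a two-sided exact permutation test, with every way to assign 6 of the 12 libraries enumerated. The limma step was tested on simulated data. P-values measure the spread between pools of oocytes, and the groups can share cows, which no label ties to libraries.

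Members named singly are those called in either month, the 2 of each complex with the highest mean, EIF4E and PABPC1, and those with p under 0.05 between seasons; further members are named by their complex. The members, complexes and pathway lists were chosen with earlier results of these data known. The alternatives tried were quantile and median-of-ratios scaling, a pseudocount of 0.1, no filter, a mean of at least 1 FPKM, 1 fit of all groups, a block on the replicate number, adjusted p, omission of the 3 libraries with under 70% of reads mapped in the study's alignment table, and omission of each library. Python 3.11.15 (numpy 2.4.6, pandas 2.3.3) gave the relative depth and the permutation tests. No sequences are shown.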

Additional observations from a re-analysis of the deposited data

Results flagged for a closer look

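Of 140 groups of 6 libraries (35 named members in 4 groups), 22 held a highest or lowest library that stood apart from the nearest other library by more than Dixon's 95% critical value. That value flags about 1 in 20 groups when groups are independent and values normally distributed. The groups here reuse the same 24 libraries, so the 22 cannot be read as an excess over chance. Most of the flagged values came from the 3 libraries of low mapping. In May GV replicate 6, EIF1 (624 FPKM), EIF2B2 (9.24), EIF2S2 (21.4), EIF3D (22.4) and EIF3M (20.2) were far above the other 5 libraries, and EIF1AD (6.65 FPKM) was far below them. July GV replicate 2 stood above its group for EEF1D (15.4 FPKM), EEF2 (13.01), EIF2AK1 (2.55), EIF2B2 (3.51), EIF3D (13.3), EIF3L (14.9) and ETF1 (1.46). May MII replicate 6 stood above its group for EIF2AK1 (4.33 FPKM), EIF2AK3 (0.851), EIF3G (8.95), EIF3M (4.42) and EIF4EBP3 (2.01), and below it for EIF3I (1.09 FPKM). Outside those libraries, EIF1AD was low in July MII replicate 5 (0.829 FPKM), EIF2B2 was high in July MII replicate 6 (0.288 FPKM), and EIF2S3 was high in July MII replicate 2 (12.5 FPKM).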

How the results depend on the processing

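The counts of members called in MII against GV oocytes (13 in each month) were within 1.5 times under all alternatives, except 22 in each month with a pseudocount of 0.1 and 21 in July with an adjusted p under 0.05. Leaving out 1 library gave 11 to 14 calls in May and 12 to 15 in July. With a pseudocount of 0.1, 8 members were higher and 14 lower in May, and 7 higher and 15 lower in July, beside 10.1% and 17.5% of all genes in May and 5.84% and 20.6% in July. The number called higher in May was 6 under quantile normalization, 5 without the 3 libraries of low mapping and 1 to 6 without 1 library, and in July it was 5 under quantile normalization, median-of-ratios scaling or omission of the 3 libraries and 2 to 5 without 1 library. The number called lower was 5 to 11 in May and 9 to 11 in July without 1 library. The members with p under 0.05 between seasons in GV oocytes numbered 2 with no filter, quantile normalization or 1 fit of all groups, 3 with median-of-ratios scaling, 4 without the 3 libraries and 0 to 4 without 1 library. In MII oocytes they numbered 0 with a mean of at least 1 FPKM or 1 fit of all groups, and 0 to 2 without 1 library. For the difference between seasons in the stage change they numbered 1 with quantile normalization, median-of-ratios scaling or the replicate block, 3 without the 3 libraries and 0 to 4 without 1 library. The cause was not tested. EEF1D, EEF2KMT, EIF1AD, EIF3G and EIF6 were called under all 20 alternatives in both months. The 20 alternatives leave out the adjusted p. In July, omission of the 3 libraries was the same fit as omission of July GV replicate 2, so these do not count separately. Between seasons, the number of members higher in July fell from 42 of 60 to 22 in GV oocytes and rose from 19 to 31 in MII oocytes with median-of-ratios scaling.

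The labels do not say that a replicate number marks a cow, and not every pair of libraries with the same number correlated above 0.1. Across stages, libraries with the same number correlated at -0.169 to 0.535 in May and -0.279 to 0.649 in July. Across seasons, they correlated at -0.322 to 0.439 in GV and -0.441 to 0.764 in MII oocytes. In that order, 2, 1, 1 and 4 of 6 correlated best with their own number. In MII oocytes this could be a hint of pairing from the data, not the design. Replicate 6 also had the lowest depth and the highest granulosa and cumulus marker sum in both MII groups. The part of cows, depth or other cells in these correlations was not tested. With the replicate block, 3 members were called higher and 10 lower in each month, as without it, but all genes with an unadjusted p under 0.05 between seasons numbered 370 in place of 201 in MII oocytes and 111 in place of 148 in GV oocytes. Depth limits the 3 libraries of low mapping most, and counting error is unknown for every value.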
